A study of Mus musculus with 18 samples.

Results

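The genes followed here are 10 mouse genes of glucose uptake, glycolysis and the hypoxia response: Slc2a1, Hk2, Pfkp, Aldoa, Pgk1, Ldha, Pdk1, Bnip3, Vegfa and Car9. Every probe set annotated to a single symbol among these names was taken, which gave 20 probe sets of the 20380 single-symbol probe sets on the array, or 10 of 12393 genes. Of these, 17 lay above the array median on all 18 arrays and were tested among 10900 probe sets. The other 3, which carry Car9 and the second probe sets of Pfkp and Vegfa, did not reach the filter of at least 4 arrays above the array median and are given as levels. Where a gene has several probe sets they are numbered by mean signal, the highest first.

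The data are log2 array signals from 18 lung tumours microdissected from 6 mice of strain C57/B6-129SvJae, aged 10 weeks. Treated mice received tamoxifen in the peritoneum in 2 injections, and tumours were collected 7 days after the first. The labels call the treated tumours p53 restored, and the question was what restoration of this tumour suppressor changed in tumours of 2 grades. There were 6 treated grade 3 tumours (adenocarcinomas) and 4 treated grade 2 tumours (adenomas), with 4 untreated tumours of each grade. All mice thus share strain and age, while the sources used here do not give the alleles that start the tumours or the allele that tamoxifen acts on, and the restored gene is not analysed here. A single female, mouse 8688, supplied 9 of the 10 treated tumours (6 of grade 3 and 3 of grade 2). The tenth, 8639T4, was from the male 8639, and the males 8565, 8584, 8629 and 8700 supplied the 8 untreated tumours. No mouse supplied both treated and untreated tumours, so treatment and mouse cannot be told apart in grade 3 or grade 2. Treatment and sex cannot be told apart in grade 3, and only the male tumour 8639T4 separates them in grade 2. Tumours of a mouse are not independent, so p-values over tumours are too small.

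The transcription factor HIF joins an oxygen-sensitive alpha subunit to a stable beta subunit. In well oxygenated cells prolyl hydroxylases mark the alpha subunit for destruction through the VHL protein, and when oxygen is short the pair binds a short core motif, ACGTG or GCGTG, near its target genes. Those targets include the glucose transporter and most glycolytic enzymes, the kinase that closes pyruvate entry into mitochondria, and genes of mitophagy, vessel growth and pH control. Glycolytic genes are also driven by growth signals through other factors such as MYC, and p53 is known to restrain glycolysis at several steps.

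The start regions of the 10 genes were read for the HIF core motif because these regions are what the pathway is known to act on. RefSeq promoter windows on GRCm38.p6 matched all 10 genes with 15 start sites. Within the 250 bases before a start, ACGTG or GCGTG was found on either strand in 12 of 15 windows (80.0%), against 12679 of 32851 windows of all genes (38.6%). ACGTG alone was in 9 of 15, against 16.6% of all windows, and GCGTG in 6 of 15, against 28.2%. Windows of neighbouring Aldoa starts overlap, so the same ACGTG match is counted more than once. The genes were chosen as hypoxia and glycolysis genes, so a share above that of all windows is not an independent result. CACGTG reads as ACGTG on both strands and counts as 2 overlapping matches. Windows with at least 4 matches were 2 of 15 (13.3%, against 2.58%), those of Bnip3 and the first start of Ldha, with 5 matches each. A match describes the letters and does not show binding. The 160 bases before the start are printed 5′ to 3′ on the gene's strand for 5 genes, with every match in capitals. They show the 2 windows richest in the motif, the windows of the 2 genes with unadjusted p-values under 0.05 for treatment in grade 2 (Pgk1 and Slc2a1), and that of Car9, whose single match lies 18 bases before the start. The windows are chr7:46845644-46845803 on the plus strand for Ldha, chr7:138909507-138909666 on the minus strand for Bnip3, chrX:106186940-106187099 on the plus strand for Pgk1, chr4:119108585-119108744 on the plus strand for Slc2a1 and chr4:43506866-43507025 on the plus strand for Car9.
Ldha: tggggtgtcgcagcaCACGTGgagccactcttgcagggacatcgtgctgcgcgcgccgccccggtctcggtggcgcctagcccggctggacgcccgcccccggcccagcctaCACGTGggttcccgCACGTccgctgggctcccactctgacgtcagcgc
Bnip3: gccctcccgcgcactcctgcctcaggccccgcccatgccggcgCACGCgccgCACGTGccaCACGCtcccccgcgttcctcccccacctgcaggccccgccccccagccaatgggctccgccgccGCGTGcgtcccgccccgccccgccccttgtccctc
Pgk1: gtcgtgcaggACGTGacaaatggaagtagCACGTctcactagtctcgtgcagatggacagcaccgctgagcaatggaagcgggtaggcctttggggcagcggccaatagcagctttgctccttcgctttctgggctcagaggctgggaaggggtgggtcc
Slc2a1: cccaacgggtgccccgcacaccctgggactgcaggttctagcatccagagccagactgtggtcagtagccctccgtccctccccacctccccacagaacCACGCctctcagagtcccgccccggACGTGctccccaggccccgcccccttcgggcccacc
Car9: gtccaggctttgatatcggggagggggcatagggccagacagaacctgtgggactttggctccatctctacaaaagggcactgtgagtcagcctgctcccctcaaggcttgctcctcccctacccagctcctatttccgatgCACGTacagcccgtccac

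Array medians ran from 6.05 to 6.18. Lung tumour epithelium was present throughout, with 8 of 9 measured markers above the array median on all 18 arrays and the surfactant gene Sftpc between 12.31 and 13.49, while the probe set of the lineage factor Nkx2-1 stayed between 3.21 and 4.26. Macrophage markers were above the median on all arrays in 8 of 8 cases and fibroblast markers in 6 of 7, and 0 of 3 measured erythroid markers passed the filter. The signal is thus from tissue with stroma, in which fewer cells of a type and less RNA per cell cannot be told apart. Tumours 8688T3 and 8639T4 stood apart in RNA quality, with a 3′ minus 5′ signal of the actin and Gapdh control transcripts of 2.62 and 1.85 on the log2 scale, against 0.62 to 1.05 in the other tumours.

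No probe set of these genes passed an adjusted p of 0.05 in any comparison, so none can be called higher or lower. Among the tested probe sets, the largest treatment differences in grade 2 tumours were those of Pgk1 probe sets 3 and 1, followed by Pdk1 probe set 1, Vegfa and Slc2a1. Aldoa, Ldha, Hk2 and Bnip3 were high on every array and varied more between single tumours than between groups. Car9 lay below the array median in all tumours but 1.

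Treatment in grade 3 tumours gave 0 of 17 member probe sets past the adjusted threshold, against 0.367% of all probe sets (40 of 10900). At an unadjusted p under 0.05 the count was also 0 of 17, against 8.47% of all probe sets (923), and in none did the groups fail to overlap, against 4.52%. The fitted log2 differences of treated minus untreated ran from -0.53 for Pgk1 probe set 3 to 0.24 for Bnip3, with 9 of 17 above 0. Their median was 0.05, beside 0.03 over all probe sets, and -0.02 when taken from plain group means without weighting tumours by mouse.

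In grade 2 tumours 14 of 17 treatment differences were above 0 (82.4%, against 52.7% of all probe sets), with a median of 0.15 beside 0.02. The 17 probe sets come from 9 genes, so in each comparison their counts hold repeat readings of a gene in the same tumours. Again 0 of 17 passed, against 0.0459% of all probe sets (5 of 10900). At an unadjusted p under 0.05 there were 3 of 17 (17.6%), against 6.86%, namely Slc2a1 probe set 3 and Pgk1 probe sets 1 and 3. The groups did not overlap for 1 member, Slc2a1 probe set 3, against 8.13% of all probe sets. The median was 0.04 without tumour 8639T4, the only treated tumour that did not come from mouse 8688 and had a 3′ excess. With arrays weighted by their quality, a fit in which the mouse correlation was also re-estimated, at -0.0022, 6 of 17 passed in this comparison (Slc2a1 probe sets 1 and 3, Aldoa probe set 3, Pgk1 probe sets 1 and 3 and Vegfa), as did 2950 of the 10900 probe sets; Aldoa probe set 3 was lower and the others higher in the treated tumours. With sex as a covariate the member medians for treatment were 0.23 in grade 3 and 0.43 in grade 2, with 0 of 17 passing in each, and these values rest on the single treated male tumour.

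The interaction asks whether the treatment difference in grade 3 differed from that in grade 2. It passed for 0 of 17 members and for 0.0% of all probe sets. At an unadjusted p under 0.05 it again held 3 of 17 (17.6%), against 8.57%, the same Slc2a1 and Pgk1 probe sets, all with a negative value. The member median was -0.18, beside 0.02 over all probe sets, with 6 of 17 above 0 (35.3%, against 52.3%). With array quality weights Pgk1 probe sets 1 and 3 passed, among 175 of all probe sets.

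Grade 3 minus grade 2 in untreated tumours passed for 0 of 17, against 0.138% of all probe sets (15 of 10900). The unadjusted p was under 0.05 for 3 of 17 (17.6%), against 11.9%, and these were once more Slc2a1 probe set 3 and Pgk1 probe sets 1 and 3. Groups did not overlap for Slc2a1 probe sets 1 and 3, against 6.09% of all probe sets. The member median was 0.05 with 10 of 17 above 0, and with array quality weights Pgk1 probe sets 1 and 3 passed, among 1146 of all probe sets. In treated tumours the grade difference passed for 0 of 17 and for 0.0% of all probe sets. There 3 of 17 (17.6%) had an unadjusted p under 0.05, against 1.61%, namely Pgk1 probe sets 1 and 3 and Vegfa, and the groups did not overlap for both Pgk1 probe sets, against 0.651%. Here the member median was -0.08 with 5 of 17 above 0 (29.4%, against 54.6%). Comparisons share groups (the untreated grade 2 tumours enter 3 of the 5), so the recurrence of a probe set is not independent.

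**Figure D1:**
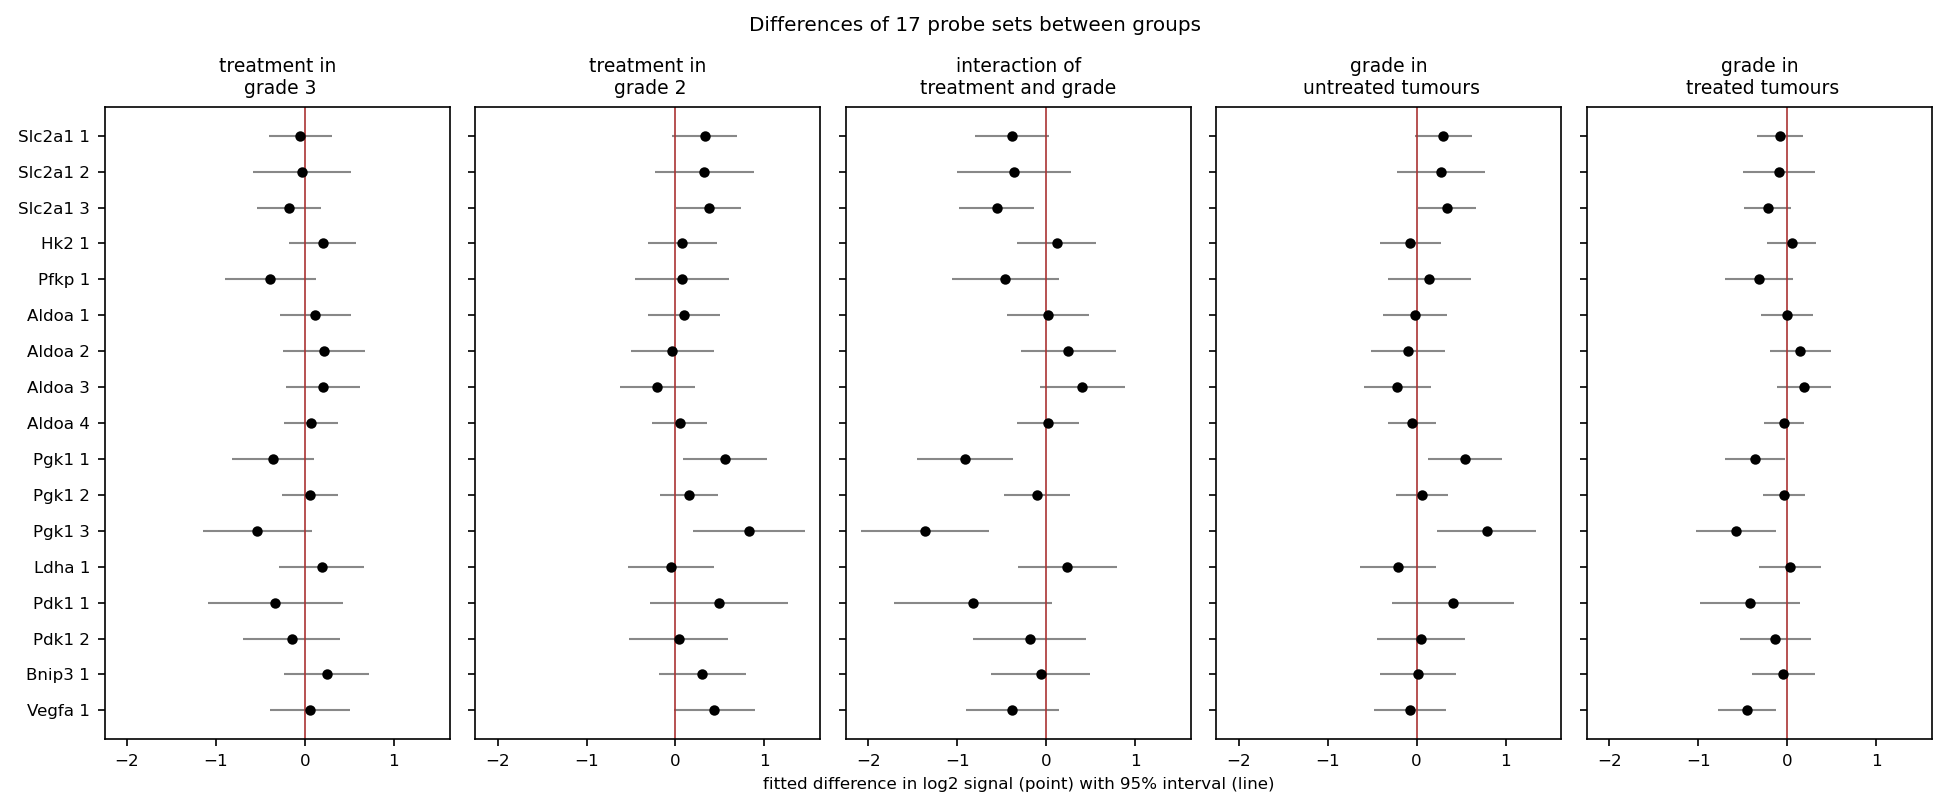
Fitted log2 differences (points) with 95% intervals (lines) of the 17 tested probe sets in the 5 comparisons, treated minus untreated or grade 3 minus grade 2. Most intervals cross 0 and the widest excursions are Pgk1 probe sets 1 and 3, which reached -1.36 (probe set 3) in the interaction.

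The intervals show the precision of the fitted differences. Of the 17 members, the 95% interval of the log2 difference stayed within 1 unit either side of 0 for 15 in the grade 3 treatment comparison, 14 in grade 2, 13 in the interaction, 15 for grade in untreated and 16 for grade in treated tumours. A change of 2-fold was thus outside the interval for most members in each comparison.

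Slc2a1 encodes GLUT1, the transporter that brings glucose into most proliferating cells. It was carried by 3 probe sets, of which the first (1434773_a_at) ran from 11.12 to 11.58 in treated grade 3 tumours with a median of 11.41. The treated grade 2 tumours had 11.45, 11.70, 11.55 and 11.12, the untreated grade 3 tumours 11.36, 11.40, 11.33 and 11.70, and the untreated grade 2 tumours 11.19, 11.06, 11.24 and 11.04. The untreated adenomas had the lowest mean, and every one lay below every untreated grade 3 tumour. The treated adenoma 8688T10 (11.12) and the treated grade 3 tumours 8688T1 (11.17) and 8688T11 (11.12) lay within the range of the untreated adenomas. The fitted difference between grades in untreated tumours was 0.30 (SE 0.15, 95% interval -0.02 to 0.62, limma adjusted p = 0.450), and the treatment difference in grade 2 was 0.33 (SE 0.17, adjusted p = 0.759).

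Slc2a1 probe set 3 (1426600_at) also had its lowest mean in the untreated adenomas. Its treated grade 2 tumours had 9.33, 9.78, 9.69 and 9.28 and its untreated grade 2 tumours 9.06, 9.12, 9.13 and 9.27, so the groups were separated by 0.01 at the nearest pair. The treatment difference in grade 2 was 0.38 (SE 0.17, 95% interval 0.01 to 0.74, adjusted p = 0.718), and that in grade 3 was -0.18 (SE 0.17, adjusted p = 0.798). The interaction was -0.56 (SE 0.20, adjusted p = 0.580). Probe set 2 (1426599_a_at) had wider spread, from 9.99 to 11.10 over the 18 tumours, and a treatment difference in grade 2 of 0.32 (SE 0.27), which was 0.13 without 8639T4. In that probe set the untreated adenoma 8565T4, at 10.59, lay within the untreated grade 3 range of 10.49 to 11.10. Between probe sets 1 and 3 the signal difference within a tumour varied by only 0.46 over the tumours, so these 2 probe sets tracked each other.

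**Figure D2:**
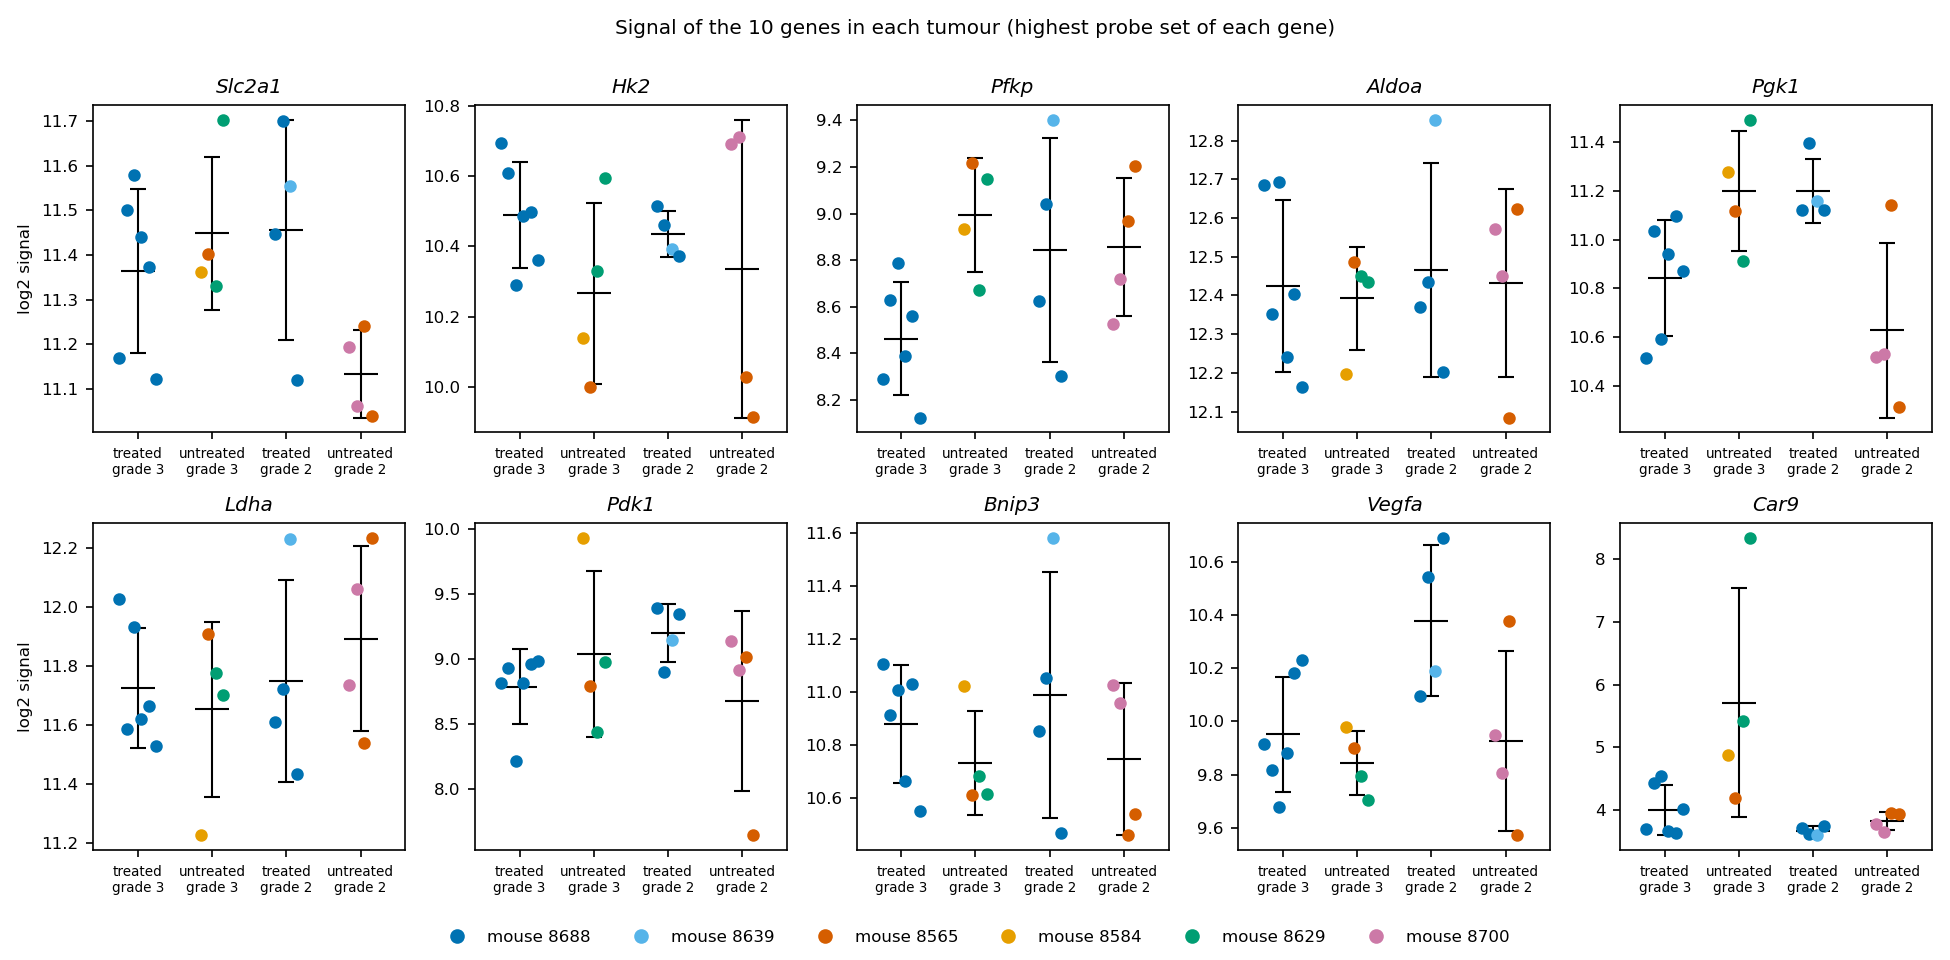
Log2 signal of the first probe set of each of the 10 genes in every tumour (points, coloured by mouse) with the group mean and SD (bars), the vertical axis being scaled to each gene. Untreated grade 2 tumours have the lowest mean for Slc2a1 and overlap with both treated groups, and Car9 is above 8 in 1 untreated grade 3 tumour only.

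Hk2 encodes hexokinase 2, which traps glucose in the cell as glucose 6-phosphate. With treatment, its probe set (1422612_at) averaged 10.49 ± 0.15 (SD, n = 6) over grade 3 tumours and 10.44 ± 0.07 (SD, n = 4) over grade 2 tumours. The untreated means were 10.27 ± 0.26 (SD, n = 4) in grade 3 and 10.34 ± 0.42 (SD, n = 4) in grade 2. Here the spread followed the mouse. In untreated grade 2 the tumours of mouse 8700 had 10.69 and 10.71 and those of mouse 8565 had 10.03 and 9.91. All 3 tumours of mouse 8565, the grade 3 tumour at 10.00 included, lay below the other 15 tumours, whose lowest value was 10.14. Within mouse 8688 the 9 tumours spanned 0.41, less than the 0.72 between mouse means. Treatment differences were 0.20 (SE 0.18, adjusted p = 0.794) in grade 3 and 0.08 (SE 0.18, adjusted p = 0.943) in grade 2.

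Pfkp encodes the platelet isoform of phosphofructokinase, the committed step of glycolysis. Its first probe set (1416069_at) ran from 8.12 to 8.79 in treated grade 3 tumours with a median of 8.48, while the untreated grade 3 tumours had 8.94, 9.22, 8.67 and 9.15. The treated tumours were mostly lower but overlapped with the untreated tumour 8629T10 at 8.67. In grade 2 the treated tumours had 8.62, 9.04, 9.40 and 8.30 and the untreated tumours 8.53, 8.72, 8.97 and 9.21, which is full overlap. The treatment difference in grade 3 was -0.39 (SE 0.25, 95% interval -0.90 to 0.13, adjusted p = 0.691). The highest value of this probe set was that of 8639T4, which also had the highest signal for Bnip3 and for Aldoa probe sets 1, 2 and 4. Pfkp probe set 2 (1430634_a_at) stayed between 2.14 and 3.07, below the array median on every array.

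Aldoa encodes aldolase A, which splits fructose 1,6-bisphosphate. All 4 of its probe sets are of the _x_at kind, whose probes can match other transcripts as well. With treatment, the first (1434799_x_at) averaged 12.42 ± 0.22 (SD, n = 6) over grade 3 tumours and 12.46 ± 0.28 (SD, n = 4) over grade 2 tumours. The untreated means were 12.39 ± 0.13 (SD, n = 4) and 12.43 ± 0.24 (SD, n = 4). Group means of this probe set thus lay within 0.1 of each other, and single tumours ran from 12.08 in 8565T3 to 12.85 in 8639T4. The treatment difference in grade 3 was 0.11 (SE 0.19, 95% interval -0.28 to 0.51) and that in grade 2 was 0.09 (SE 0.19, 95% interval -0.31 to 0.50). Over all 4 probe sets (the others being 1416921_x_at, 1433604_x_at and 1439375_x_at) treatment differences ran from 0.07 to 0.22 in grade 3 and from -0.21 to 0.09 in grade 2.

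Pgk1 encodes phosphoglycerate kinase, the first ATP-yielding step of glycolysis, and lies on chromosome X. Its 3 probe sets did not give the same picture. Probe set 1 (1439435_x_at) ran from 10.51 to 11.10 with a median of 10.91 in treated grade 3 tumours, and the untreated grade 3 tumours had 11.28, 11.12, 10.91 and 11.49. The treated grade 2 tumours had 11.12, 11.40, 11.16 and 11.12 and the untreated grade 2 tumours 10.52, 10.53, 11.14 and 10.31. In treated tumours every adenoma was above every grade 3 tumour, and in untreated tumours the adenomas were the low group except for 8565T3.

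Probe set 3 of Pgk1 (1438640_x_at) followed the same order with wider spacing. Its values ran from 9.27 to 9.91 with a median of 9.64 in treated grade 3, and were 10.24, 10.07, 9.64 and 10.65 in untreated grade 3 tumours. The treated adenomas had 10.12, 10.47, 10.06 and 10.06 and the untreated adenomas 9.08, 9.16, 10.07 and 8.96. As in probe set 1, only 8565T3 among the untreated adenomas reached the treated ones. The treatment difference was -0.53 (SE 0.29, 95% interval -1.15 to 0.08, adjusted p = 0.656) in grade 3 and 0.83 (SE 0.30, 95% interval 0.20 to 1.45, adjusted p = 0.528) in grade 2. The interaction was -1.36 (SE 0.34, 95% interval -2.08 to -0.64, adjusted p = 0.580), with an unadjusted p of 0.000868, and -1.43 (SE 0.24, adjusted p = 0.0152) with array quality weights. Grade differences were 0.79 (SE 0.26, adjusted p = 0.274) in untreated and -0.57 (SE 0.21, adjusted p = 0.999) in treated tumours. For probe set 1 the interaction was -0.91 (SE 0.26, 95% interval -1.45 to -0.37, adjusted p = 0.580).

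Probe set 2 of Pgk1 (1417864_at), the only one not of the _x_at kind, showed none of this spacing. It ran from 10.78 to 11.10 with a median of 10.82 in treated grade 3 and was 10.66, 10.88, 11.04 and 11.02 in untreated grade 3 tumours. Treated adenomas had 10.86, 11.06, 11.24 and 10.63, and untreated adenomas had 10.79, 10.94, 10.72 and 10.86. All 4 groups overlapped, and the interaction was -0.10 (SE 0.18, 95% interval -0.47 to 0.27, adjusted p = 0.886). Probe set 2 minus probe set 3 ranged from 0.37 in 8629T12 to 1.90 in 8565T4, whereas probe set 1 minus probe set 3 ranged from 0.84 to 1.44. The Pgk1 result therefore depends on the probe set. What else the probes of sets 1 and 3 may match was not tested.

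**Figure D3:**
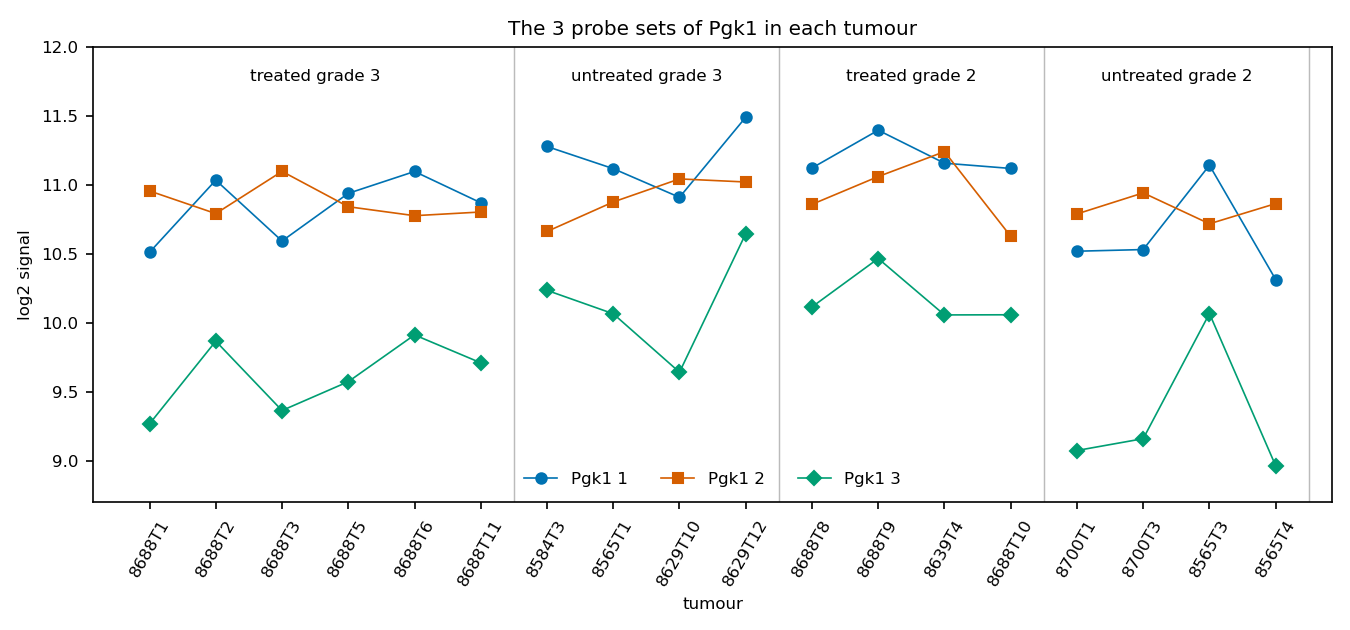
Log2 signal of the 3 Pgk1 probe sets in each of the 18 tumours, arranged by group; lines join the tumours of a group only to guide the eye. Probe sets 1 and 3 move together and are low in 3 of 4 untreated grade 2 tumours, while probe set 2 stays between 10.63 and 11.24.

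Ldha encodes the lactate dehydrogenase subunit that turns pyruvate into lactate. Its probe set (1419737_a_at) ran from 11.53 to 12.03 with a median of 11.64 in treated grade 3 and was 11.23, 11.91, 11.78 and 11.70 in untreated grade 3 tumours. In grade 2 it was 11.61, 11.72, 12.23 and 11.43 in treated and 11.73, 12.06, 11.54 and 12.23 in untreated tumours. The groups overlapped in both grades, and the 2 highest tumours, 8639T4 and 8565T4, were of opposite treatment. Differences with treatment were 0.19 (SE 0.23, 95% interval -0.29 to 0.66, adjusted p = 0.842) in grade 3 and -0.05 (SE 0.23, 95% interval -0.54 to 0.43, adjusted p = 0.974) in grade 2. The grade 3 value was -0.02 without 8584T3, and the grade 2 value was -0.27 without 8639T4 and 0.12 without 8565T4.

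Pdk1 encodes the pyruvate dehydrogenase kinase that HIF uses to keep pyruvate out of mitochondria. Its first probe set (1423747_a_at) had the widest range among the tested probe sets of these genes, 2.29, from 7.64 in the untreated adenoma 8565T4 to 9.93 in the untreated grade 3 tumour 8584T3. Treated grade 3 tumours ran from 8.21 to 8.99 with a median of 8.87, and the other untreated grade 3 tumours had 8.79, 8.44 and 8.98. The treated adenomas had 9.39, 8.90, 9.15 and 9.34 and the other untreated adenomas 9.13, 8.91 and 9.01. Away from the 2 extreme tumours the groups overlapped. The interaction was -0.82 (SE 0.42, 95% interval -1.71 to 0.06, adjusted p = 0.586). It was -0.43 without 8565T4 and -0.17 with array quality weights. Probe set 2 (1423748_at) gave -0.18 (SE 0.30) for the same quantity, and its lowest tumour was 8688T3 at 7.77, which was also the lowest treated tumour for probe set 1 and had the largest 3′ excess; the part of RNA quality was not tested.

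Bnip3 encodes a mitochondrial outer membrane protein that recruits the autophagy machinery in hypoxic cells. Its probe set (1422470_at) ran from 10.55 to 11.11 with a median of 10.96 in treated grade 3 tumours, against 11.02, 10.61, 10.68 and 10.61 in untreated grade 3 tumours. The grade 2 values were 10.85, 11.05, 11.58 and 10.47 with treatment and 11.03, 10.96, 10.46 and 10.54 without. Groups overlapped in both grades, with 8639T4 at the top. The treatment difference was 0.24 (SE 0.23, 95% interval -0.23 to 0.72, adjusted p = 0.794) in grade 3 and 0.30 (SE 0.23, 95% interval -0.18 to 0.79, adjusted p = 0.831) in grade 2. Without 8639T4 these differences were 0.11 and 0.04.

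Vegfa encodes the ligand that draws new vessels toward hypoxic tissue. Its first probe set (1420909_at) ran from 9.68 to 10.23 with a median of 9.90 in treated grade 3 tumours and was 9.98, 9.90, 9.79 and 9.70 in untreated grade 3 tumours. The treated adenomas had 10.10, 10.54, 10.19 and 10.69, and the untreated adenomas had 9.95, 9.80, 10.38 and 9.57. Treated adenomas were the high group, overlapping with treated grade 3 tumours and with the untreated adenoma 8565T3. Grade 3 minus grade 2 in treated tumours was -0.45 (SE 0.16, 95% interval -0.78 to -0.12, adjusted p = 0.999, unadjusted p = 0.0101). Within the 9 tumours of mouse 8688 alone it was -0.49 (SE 0.16, adjusted p = 0.852). That mouse supplied nearly all treated tumours, so this value shares most of its data with -0.45 and is not independent of it. The treatment difference in grade 2 was 0.44 (SE 0.22, 95% interval -0.02 to 0.89, adjusted p = 0.746), and 0.26 without 8565T4. Probe set 2 (1451959_a_at) stayed between 4.52 and 5.56.

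Car9 encodes carbonic anhydrase 9, a cell surface enzyme of pH control that is widely used as a hypoxia marker. Its probe set (1427013_at) was between 3.59 and 5.42 in 17 tumours and 8.34 in the untreated grade 3 tumour 8629T12, the only array on which it lay above the median. The untreated grade 3 tumours had 4.88, 4.18, 5.42 and 8.34, the treated grade 3 tumours ran from 3.63 to 4.54 with a median of 3.85, and all 8 adenomas lay between 3.59 and 3.94. Every untreated grade 3 tumour was thus above every adenoma, though all of these values but that of 8629T12 lay below the array median. Untreated grades did not overlap for 6.09% of the tested probe sets, to which Car9 does not belong. A limma fit without the filter on low signal gave adjusted p = 0.305 for grade in untreated tumours and 0.441 for treatment in grade 3. These are not differences between measured levels, so no size is given. In 8629T12 mesothelin, Msln, a mesothelial marker, was 10.23, against at most 7.99 in the other tumours, while the mesothelial markers Upk3b (4.99, others 3.29 to 7.74) and Wt1 (3.32, others 2.90 to 4.76) lay within the range of the others. The mean of the 3 measured mesothelial markers was 4.19 to 6.18 in untreated grade 3, 5.08 to 6.38 in treated grade 3, 4.78 to 6.03 in treated and 5.10 to 5.97 in untreated grade 2 tumours, and its part in the Car9 value was not tested.

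No tumour was high or low for all members. Over the first probe sets of the 9 genes that were tested, 8639T4 was the highest tumour for 3 genes and above the gene's mean for 8 of 9, with a mean deviation of 0.35. Tumour 8565T4 was the lowest for 5 of 9 and the highest for 1, with a mean deviation of -0.26. The other tumours had mean deviations between -0.16 and 0.21. Tumour 8639T4 had a 3′ excess of 1.85, whereas 8688T3, with 2.62, was the highest for 0 of 9 and had a mean deviation of -0.07; the part of RNA quality in these ranks was not tested. The SD of the tested member probe sets over the 18 tumours ran from 0.14 to 0.48 with a median of 0.27, beside a median of 0.25 over all tested probe sets.

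**Figure D4:**
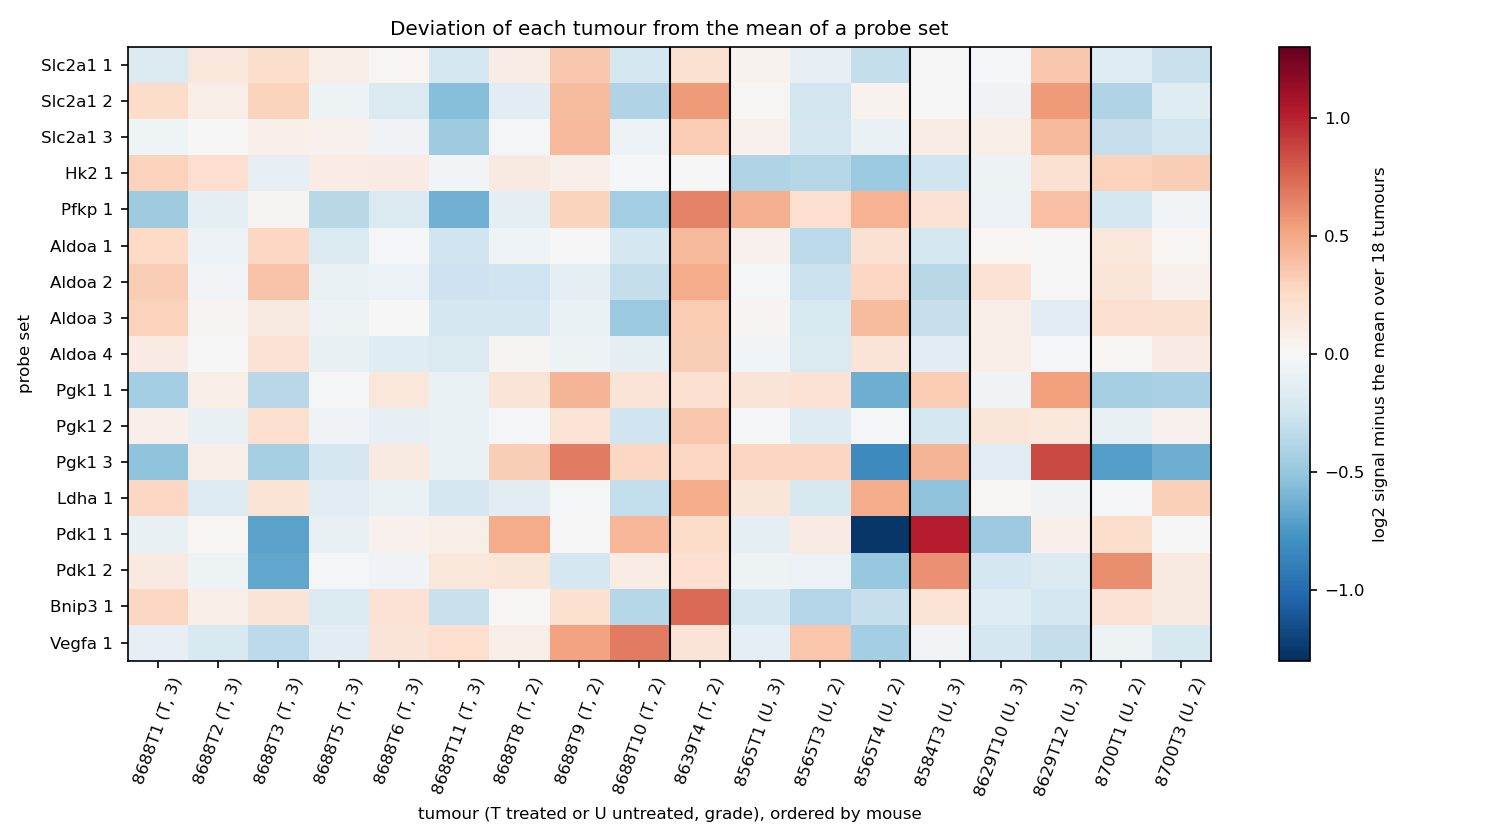
Log2 signal of the 17 tested probe sets minus the mean of each over 18 tumours, with tumours ordered by mouse (black lines part the mice; T treated, U untreated, followed by the grade). Most columns hold both red (above the mean) and blue (below) cells, and 8639T4 is mostly red.

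Other genes of the pathway were read from 8 lists with 111 genes, of which 63 genes with 97 probe sets were tested. The number past the adjusted threshold was 0 of 97 in each of the 5 comparisons. At an unadjusted p under 0.05 there were 5 (5.15%) for treatment in grade 3, 6 (6.19%) for treatment in grade 2, 13 (13.4%) for the interaction, 24 (24.7%) for grade in untreated and 2 (2.06%) for grade in treated tumours. The shares over all probe sets are those given above for each comparison, and grade in untreated tumours was the comparison in which the listed genes exceeded theirs by most. That count includes Hif3a and Vegfd (1449528_at), which lay below the array median on most arrays and are described below. Hif3a is also in the counts for treatment in grade 2 and for the interaction. The lists were chosen with earlier results of these data known, and some genes have several probe sets read in the same tumours. The excess for grade in untreated tumours is therefore not an independent result.

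Among the HIF regulators 9 probe sets of 6 genes were tested. Hif1a, the oxygen-sensitive subunit itself, had 3 probe sets with treatment differences of -0.09, -0.26 and 0.29 in grade 3 and of 0.09, 0.24 and 0.21 in grade 2, none past the threshold. The prolyl hydroxylase gene Egln1 (1423785_at) differed by -0.39 (SE 0.17, adjusted p = 0.393) between grades of untreated tumours. Hif3a, an alpha subunit that can act as a brake on HIF, had a low signal of 3.63 ± 0.18 (SD, n = 4) in untreated grade 2 tumours and 5.61 ± 1.43 (SD, n = 4) in untreated grade 3 tumours. With treatment it averaged 5.45 ± 0.65 (SD, n = 4) over grade 2 tumours and 5.70 ± 0.35 (SD, n = 6) over grade 3 tumours. The untreated adenomas (3.41 to 3.83) lay below all other tumours, whose lowest value was 4.39. Hif3a lay above the array median on only 4 arrays (8688T5, 8639T4, 8584T3 and 8629T12) and passed the filter through these, with all untreated adenomas below the median. Its fitted differences, with adjusted p = 0.211 for grade in untreated tumours and 0.473 for treatment in grade 2, are therefore not differences between measured levels.

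Of the 18 tested probe sets of other glycolysis and lactate transport genes, 13 were above 0 for grade in untreated tumours, against 50.0% of all probe sets. Their median was 0.13, and 7 had an unadjusted p under 0.05, against 11.9% of all probe sets. The 18 probe sets come from 12 genes, so these counts hold repeat readings of a gene in the same tumours. Triosephosphate isomerase, Tpi1 (1435659_a_at), differed by 0.45 (SE 0.17, adjusted p = 0.320). Ldhb, the lactate dehydrogenase subunit that favours pyruvate, differed by -0.71 (SE 0.26, adjusted p = 0.320), and its lowest tumour was 8629T12 at 9.71, against 10.83 or more in the others. The same tumour was the lowest in every tested Ldhb probe set and the highest in every tested Tpi1 probe set. Eno2, the neuronal enolase, averaged 5.93 ± 0.12 (SD, n = 4) over treated adenomas and 6.86 ± 0.22 (SD, n = 4) over untreated ones (adjusted p = 0.304). All 4 treated adenomas lay below the array median, so no fitted size of the difference is given. The list medians for treatment were -0.05 in grade 3 and 0.14 in grade 2.

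The hypoxia-inducible genes outside the members included the value nearest to the threshold. Angptl4, a secreted inhibitor of lipoprotein lipase, ran from 6.37 to 7.20 in treated grade 3 tumours and was 8.57, 7.16, 8.40 and 8.67 in untreated grade 3 tumours. Only 8565T1 at 7.16 reached into the treated range. The difference was -1.33 (SE 0.30, adjusted p = 0.0630). In untreated tumours the grade difference was 0.93 (SE 0.27, adjusted p = 0.213), with adenomas at 7.32, 7.12, 6.84 and 7.14. The stress gene Ndrg1 (1450976_at) gave a grade difference of 0.98 (SE 0.35, adjusted p = 0.312) in untreated tumours, with means of 8.54 ± 0.62 (SD, n = 4) in grade 3 and 7.48 ± 0.23 (SD, n = 4) in grade 2. Over the 28 probe sets of this list the medians were -0.01 and 0.11 for treatment in grade 3 and grade 2, and 0.06 and -0.14 for grade in untreated and treated tumours.

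VEGF ligands and receptors had 1 of 14 probe sets above 0 between grades of untreated tumours, against 50.0% of all probe sets, with a median of -0.43. An unadjusted p under 0.05 was reached by 5 of 14, against 11.9% of all probe sets. These 14 probe sets come from 8 genes, 3 of them each for Vegfd and Nrp1. The lymphatic ligand Vegfd (1449528_at) was 5.31, 6.55, 6.83 and 7.72 in untreated adenomas and 3.74, 5.62, 4.05 and 5.08 in untreated grade 3 tumours (adjusted p = 0.236). This probe set lay above the array median on only 4 arrays, 3 of them untreated adenomas, and below it in all untreated grade 3 tumours, so no size of the difference is given. The counts and the median of this list include it. The main VEGF receptor Kdr differed by -0.66 (SE 0.21, adjusted p = 0.251). The mean of 8 endothelial markers, a list that also holds Kdr, was 7.62 to 8.53 in untreated grade 3 and 8.32 to 9.06 in untreated grade 2 tumours, and its part in these values was not tested. In treated tumours the list median for grade was -0.02, with 6 of 14 above 0.

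The remaining lists had few probe sets. Pyruvate entry into mitochondria had medians of 0.04 and 0.03 for treatment in grade 3 and grade 2; the carrier subunit Mpc1 differed by 0.53 (SE 0.18, adjusted p = 0.278) in grade 3. Of p53 targets in energy metabolism, Pank1, a kinase of coenzyme A synthesis, differed with treatment by 0.96 (SE 0.36, adjusted p = 0.405) in grade 3, where the untreated tumour 8584T3 was low at 4.98. Lpin1 (1426516_a_at), a phosphatidate phosphatase, differed by 0.74 (SE 0.22, adjusted p = 0.409) in grade 2. Among other transcription regulators of glycolysis, Foxk2 (1452753_at) differed by 0.37 (SE 0.14, adjusted p = 0.435) with treatment in grade 3. Carbonic anhydrases other than Car9 had 4 tested probe sets, none with an unadjusted p under 0.05 in any comparison.

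**Figure D5:**
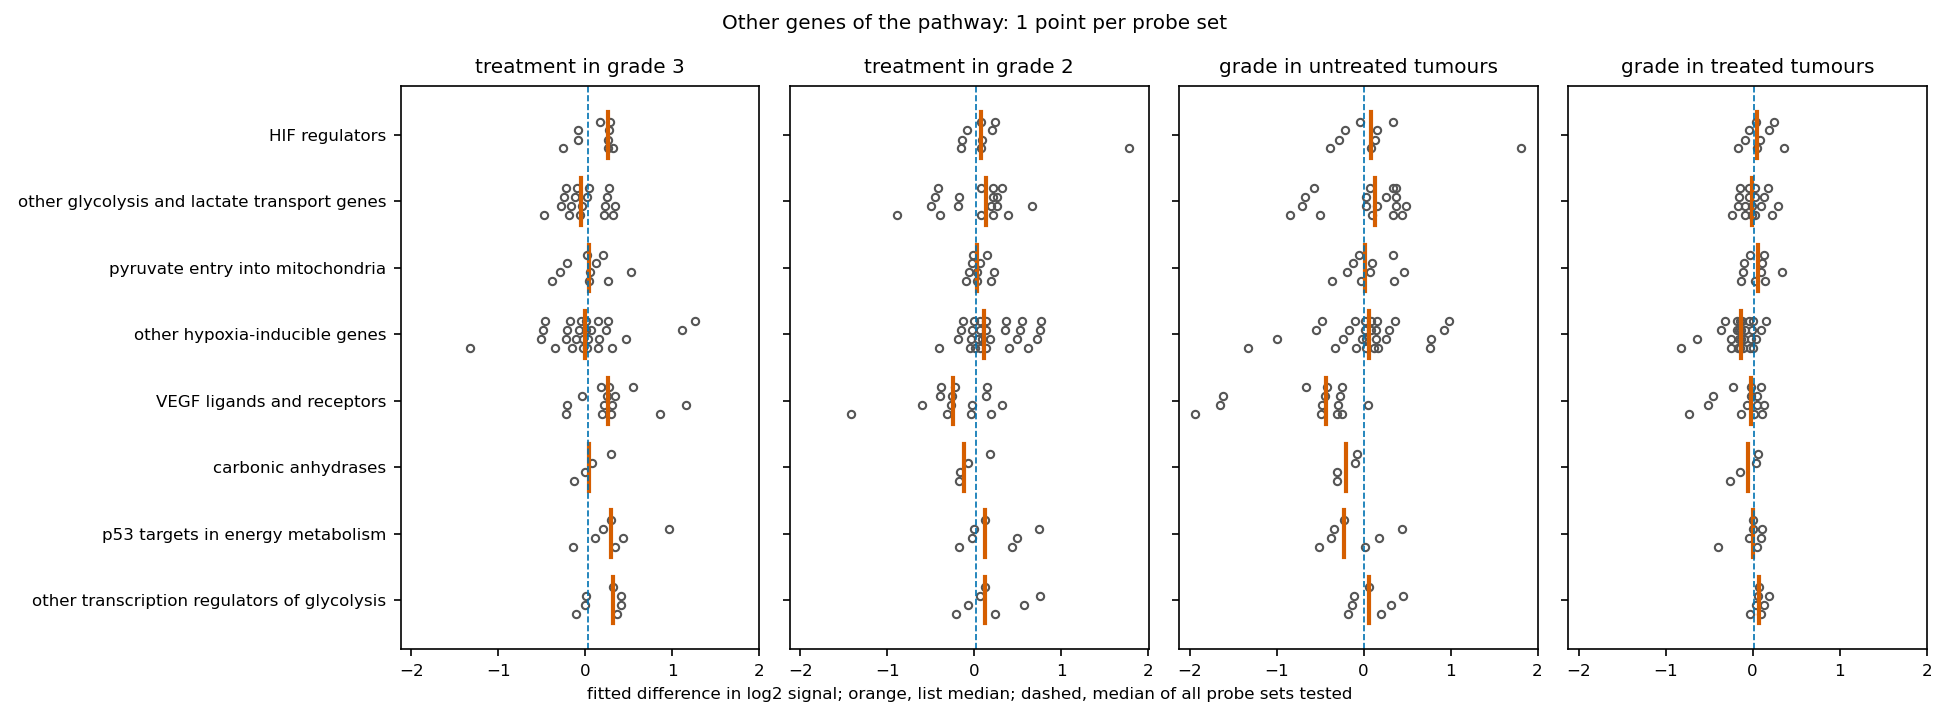
Fitted log2 differences of the 97 tested probe sets of other pathway genes (1 point each) in 4 comparisons, by list, with the list median in orange and the median of all tested probe sets dashed. For grade in untreated tumours the VEGF list lies left of 0 in 13 of 14 points and the HIF regulator at the far right is Hif3a, whose untreated adenomas lay below the array median.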

How the data were processed

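Gene expression was measured in 18 lung tumours on single-colour arrays from 100 ng of amplified, biotin-labelled RNA, per the labels' protocols. The deposited values are log2 signals, 1 per probe set. GCRMA 2.20.0 under R 2.11.0 made them, according to the submitters' processing notes; this corrects background by probe sequence, applies quantile normalisation and summarises probes, which removes differences in total RNA. Values ran from 0.936 to 14.1, and precision is limited by the number of arrays. Of 22690 probe sets, 20380 had 1 symbol, 691 several, 1555 none and 64 were controls; 20351 were found in the reference table through their gene ID, with 0 changes of symbol.

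Probe sets whose signal exceeded the array median on 4 or more arrays were fitted with limma 3.58.1 in R 4.3.3 (4 group means, mouse as a random block with correlation 0.256, Benjamini-Hochberg over 10900 probe sets, threshold 0.05). Fitted differences weight tumours by that correlation. Probe sets rather than genes were the unit because the members are probe sets. Groups came from the labels. All probe sets of the 10 members are described; of the other lists a gene was named where it passed or, with none passing, where it was among the 2 smallest unadjusted p-values in a comparison. Hif1a, Msln, Upk3b, Wt1, Sftpc and Nkx2-1 were named as the pathway's central factor or as markers. The members and lists were chosen with earlier results of these data known. Listed genes with no single-symbol probe set, such as Gapdh, Eno1, Bnip3l and Tigar, are not analysed here.

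Alternatives changed the mouse term, the sex term, the tumours in the fit, the normalization, the filter, the probe-set rule, the spread model and the array weights, and left out tumours. The fit was also run on simulated data with planted treatment differences, the same mice and a set mouse correlation, and its outcome is not given here. Such a run cannot tell treatment from mouse in these tumours.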

Additional observations from a re-analysis of the deposited data

Results flagged for a closer look

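Of 80 sets of values (20 probe sets in 4 groups), 8 held a tumour whose gap to the nearest other, relative to the range of its group, was above Dixon's 95% critical value. Chance alone gives about 1 in 20 such sets. Tumour 8629T12 was the high value among untreated grade 3 tumours for Slc2a1 probe set 2, at 11.10 with the next at 10.56, and for Slc2a1 probe set 3, at 9.78 with the next at 9.45. It is also the tumour with the Car9 signal of 8.34. In treated grade 3 tumours 8688T11 was low for Slc2a1 probe set 3, at 8.90 against 9.30. Among treated adenomas 8688T9 was high for Pgk1 probe set 1, at 11.40 against 11.16, and for Pgk1 probe set 3, at 10.47 against 10.12. For Pdk1, 8688T3 was low among treated grade 3 tumours in probe set 1, at 8.21 against 8.81, and in probe set 2, at 7.77 against 8.37. The untreated adenoma 8565T4 was low for Pdk1 probe set 1, at 7.64 against 8.91.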

How the results depend on the processing

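Of 2544 values of single members under the alternatives, 2509 stayed on the same side of the threshold and moved by less than the spread between tumours, 25 moved by more and 10 newly passed. No member was called as reported, and the sign of small differences could turn, as that of the grade 3 treatment median did. All 10 that newly passed did so with array quality weights, which ran from 0.21 (8584T3) to 6.04 (8700T3). The mouse correlation re-estimated with them was -0.0022, against 0.256 as reported, so that fit also had almost no mouse term; without a mouse term and without weights 0 members passed. These weights gave 6 passing members for treatment in grade 2, 2 for the interaction and 2 for grade in untreated tumours; every other alternative run gave 0, as did leaving out each tumour in turn. The median treatment difference in grade 3 was 0.23 with sex as a covariate and -0.080 with array weights, and that in grade 2 was 0.43 with sex and 0.30 with each gene by its highest probe set. With sex in the fit, treatment rests on the single treated male tumour 8639T4. The interaction median was -0.31 with means per mouse and -0.38 by the highest probe set, and the median for grade in treated tumours was -0.20 with means per mouse. Leaving out tumours gave medians from -0.01 (without 8639T4) to 0.07 for treatment in grade 3, from 0.04 (without 8639T4) to 0.24 in grade 2, from -0.31 (without 8700T1) to -0.11 for the interaction, from 0.03 to 0.10 for grade in untreated and from -0.21 (without 8688T10) to 0.0095 in treated tumours. Leaving out both 8688T3 and 8639T4, an alternative chosen after seeing the data, gave 0.04 in grade 2. The cause of these moves was not tested. Over all probe sets, the count for treatment in grade 3 ran from 0 with means per mouse to 363 with no replicate block for the mouse, against 40 as reported. In grade 2 it ran from 0 to 45, in the interaction from 0 to 14 and for grade in untreated tumours from 0 (mouse as a fixed block) to 93, and array weights gave 563, 2950, 175 and 1146. Treatment and the interaction could not be fitted with the mouse as a fixed block, because no mouse carried tumours of both kinds. The grade comparisons allow the mouse as a fixed replicate block, and then 0 members passed, with medians of 0.11 in untreated and 0.0095 in treated tumours. Only mouse 8565 carried untreated tumours of both grades, so the untreated value rests on 8565T1, 8565T3 and 8565T4. The treated value rests on mouse 8688 alone.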
